A study of Arabidopsis thaliana with 27 samples.

Results

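The response of the uvr8-6 mutant of Arabidopsis thaliana to a low dose of UV-B was set against the response of the wild type (WT) to the same dose, for every gene measured by RNA sequencing of hypocotyls. For each gene the value is a difference of log2 responses, the uvr8-6 UV-B level minus the uvr8-6 dark level, less the WT UV-B level minus the WT dark level. The comparison uses 12 of the 27 libraries of the series, 3 in each of 4 groups: uvr8-6 seedlings given 3000 µmol m-2 of UV-B, uvr8-6 seedlings kept dark, WT seedlings given 3000 µmol m-2 of UV-B, and WT seedlings kept dark. All 4 groups were germinated in darkness on 0.5x Murashige and Skoog medium with 100 µM of the gibberellin GA4. UV-B was given after 2.5 days, for about 5 min, and the seedlings went back to darkness. Hypocotyls, the elongating stems of these etiolated seedlings, were cut 6 h later according to the extraction protocol, whereas the series title gives a longer interval. The labels name neither the accession behind WT nor separate cultures for the replicates, so that the p-values measure the spread between these libraries, which may be technical.

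UVR8 is the UV-B photoreceptor of plants. On absorbing UV-B its dimer splits, and the monomer binds the COP1-SPA ubiquitin ligase, which lets the transcription factor HY5 and its relative HYH accumulate and turn on genes of flavonoid synthesis, photoprotection and repair. RUP1 and RUP2 return the receptor to its dimer. UV-B also damages DNA and raises oxidative stress by routes that do not need the receptor, so a mutant such as uvr8-6 separates receptor-dependent from other changes.

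Library totals were 12968130 to 15340602 counts in uvr8-6 and 7100365 to 11984665 in WT. A note deposited with the data places the uvr8-6 libraries in a later sequencing run than those of WT, so run and genotype cannot be told apart in a level compared between genotypes. An offset of the run that is the same in both uvr8-6 groups appears in both terms of the uvr8-6 response and subtracts out of it. The hypocotyl libraries held PHYA, the dark-abundant phytochrome, at 464 to 620 CPM (read counts scaled to the size of the library) in uvr8-6 and 702 to 857 CPM in WT. Libraries with replicate number 2 of uvr8-6 stood apart. ELIP1, an early light-induced protein gene, had 3.83, 99.4 and 4.45 CPM in the uvr8-6 UV-B libraries and 2.41, 53.8 and 3.28 CPM in the uvr8-6 dark libraries, replicates 1 to 3. In WT it had 100.3, 16.9 and 35.4 CPM after UV-B and 48.2, 11.6 and 17.1 CPM in the dark. ELIP1 was thus highest in replicate 2 of both uvr8-6 groups and in replicate 1 of both WT groups, and SIG5, a light-induced plastid sigma factor gene, followed the same order. Results are therefore also given without those pairs of libraries.

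The uvr8-6 response was smaller than the WT response for most of the genes that differed. Of 19794 genes tested, 156 (0.788%) passed for the difference of responses, 51 of them (0.258%) with a higher and 105 (0.53%) with a lower value in uvr8-6, by edgeR's quasi-likelihood test with Benjamini-Hochberg adjustment over all of them, at an adjusted p of 0.05. The higher genes were 28 of 53 in a fit on the 12 libraries alone and 30 of 138 without a filter on low counts. An unadjusted p under 0.05 was found for 1629 genes. Within genotypes, 1090 genes (5.51%) changed in uvr8-6, of which 520 (2.63%) rose and 570 (2.88%) fell. In WT 5064 (25.6%) changed, of which 2559 (12.9%) rose and 2505 (12.7%) fell. The rises in both genotypes numbered 471, which is 90.6% of the uvr8-6 rises and 18.4% of the WT rises. The falls in both numbered 525, or 92.1% of the uvr8-6 falls and 21.0% of the WT falls, and no gene was called in opposite directions. Across the tested genes the median absolute log2 response was 0.18 in uvr8-6 and 0.30 in WT, and the 2 responses correlated with a Pearson r of 0.75 and a Spearman rho of 0.72. Genes are not independent replicates, and this correlation is a description.

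**Figure D1:**
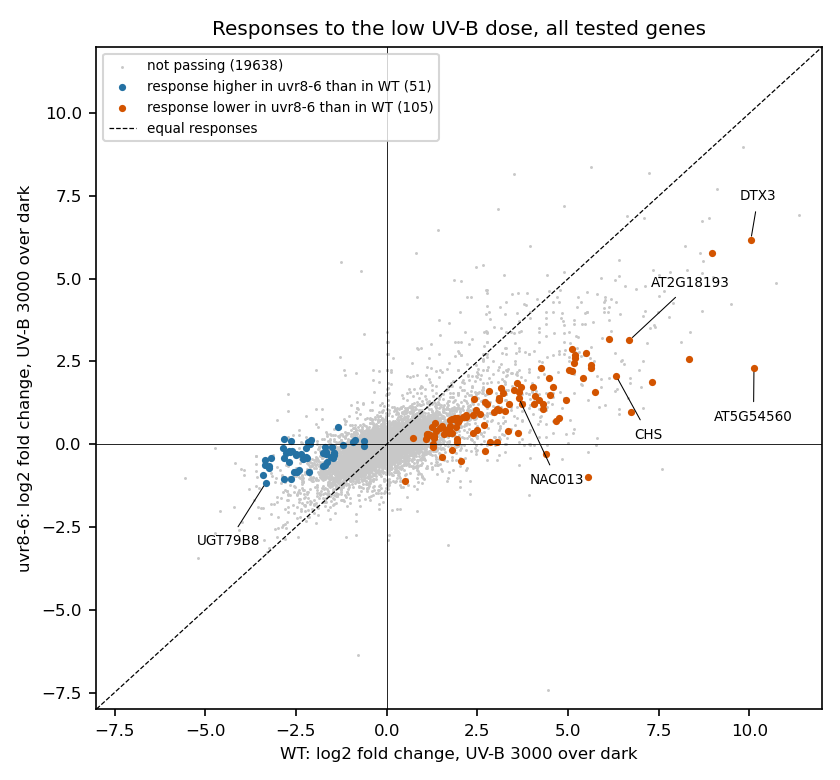
Each point is a tested gene, with the WT log2 fold change of UV-B over dark on the x axis and the uvr8-6 log2 fold change on the y axis. The 105 genes whose response was lower in uvr8-6 lie below the dashed line of equal responses and to the right of 0, and the 51 whose response was higher lie above it and to the left of 0.

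All 105 genes with a lower difference had a WT response above 0, with a median of 2.97 on the log2 scale, while the median of their uvr8-6 responses was 0.90. In 97 of them the uvr8-6 response lay between 0 and the WT response. The 3 uvr8-6 UV-B libraries were all above the 3 uvr8-6 dark libraries for 80 of the 105 genes, and the WT UV-B libraries were all above the WT dark libraries for 105. The share of all tested genes with such a separation was not counted. The 51 genes with a higher difference all had a WT response below 0, with a median of -2.23, against a median uvr8-6 response of -0.30. Of these 51, 8 fell in uvr8-6 and 51 fell in WT. The direction in WT was thus the same within each set. The WT response is a term of the difference by which these genes were picked. Its direction and size in the 2 sets are therefore a description and not a separate result.

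Dark and UV-B levels both entered these differences. Among the 105 lower genes the median log2 CPM after UV-B was 3.60 in uvr8-6 and 4.41 in WT, and in the dark it was 2.62 in uvr8-6 and 1.65 in WT. All uvr8-6 dark libraries were above all WT dark libraries for 69 of the 105. Among the 51 higher genes the median after UV-B was 4.2 in uvr8-6 and 3.10 in WT, and in the dark 4.55 in uvr8-6 and 5.2 in WT, with the uvr8-6 dark libraries all below the WT dark libraries for 37. These comparisons of levels between genotypes also compare sequencing runs. How many of all tested genes separate by genotype in this way was not counted, so the 69 and the 37 have no background beside them.

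The number of genes that differed depended on single libraries. It was 92, 112 and 88 without uvr8-6 UV-B replicate 1, 2 or 3, 103, 57 and 221 without uvr8-6 dark replicate 1, 2 or 3, 237, 71 and 60 without WT UV-B replicate 1, 2 or 3, and 318, 64 and 65 without WT dark replicate 1, 2 or 3. Without both libraries of uvr8-6 replicate 2 it was 33, of which 5 were higher and 28 lower. Without both of WT replicate 1 it was 406 (90 higher, 316 lower). Without both pairs it was 224 (33 higher, 191 lower), and 101 of these were among the 156. The uvr8-6 response had 1090 genes, and 1742 with the replicate number as a block within each genotype. It had 513 without uvr8-6 UV-B replicate 2 and 410 without uvr8-6 dark replicate 3. In each of these counts the lower genes outnumbered the higher ones for the difference of responses.

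**Figure D2:**
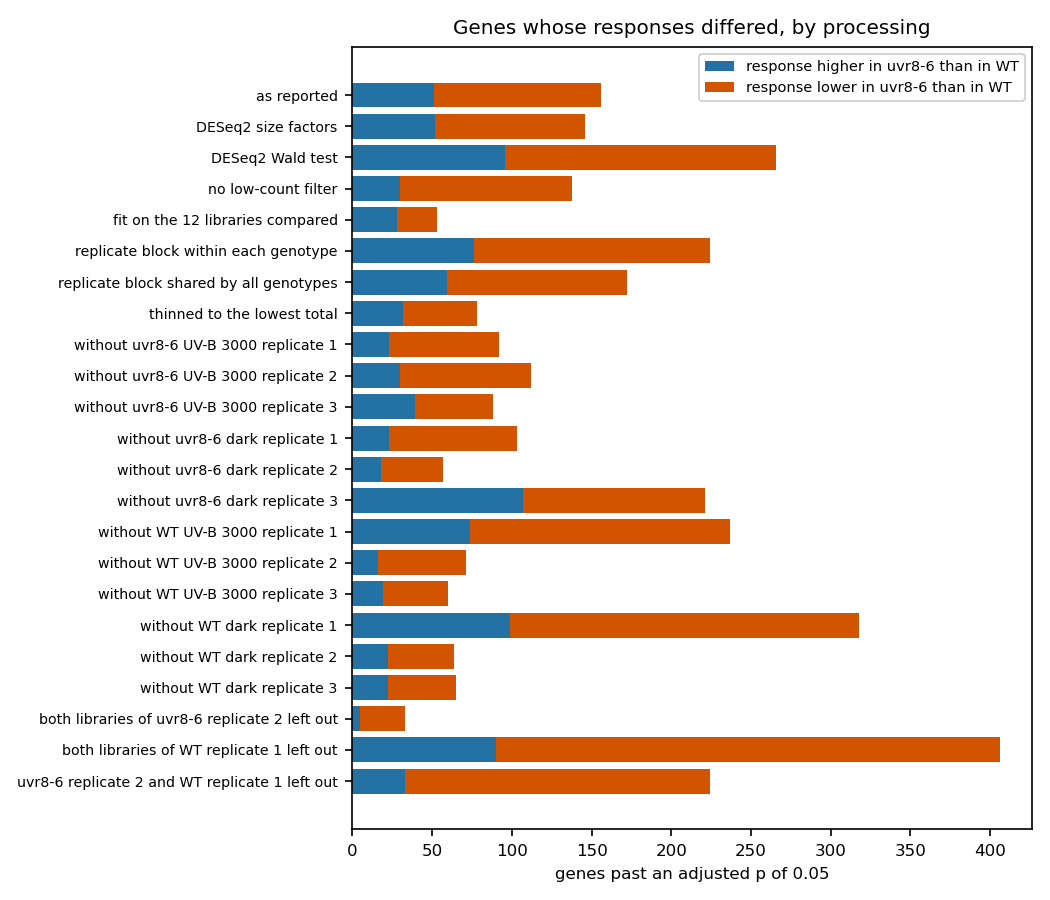
Bars show, for the reported fit and each alternative, the number of genes whose response was higher (left part of each bar) or lower (right part) in uvr8-6 than in WT at an adjusted p of 0.05. The totals lie between 33 and 406 around the reported 156.

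UVR8 itself was measured at a low level in the mutant. It had 3.56, 3.17 and 3.66 CPM in the uvr8-6 UV-B libraries and 2.78, 3.16 and 4.57 CPM in the uvr8-6 dark libraries, against 67, 74 and 82.3 CPM in WT after UV-B and 70.6, 71.7 and 69.7 CPM in WT in the dark. The uvr8-6 libraries were thus all below the WT libraries, and UV-B and dark overlapped within each genotype. The difference of its log2 responses was -0.09 ± 0.23 (3 libraries a group). Each ± value, here and below, is the fitted log2 value without its sign, divided by the root of its test's F statistic. It serves as a standard error (SE) and is unreliable where a group holds few counts.

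No gene of the receptor's signalling chain passed for the difference of responses. All 20 members of that list were tested, their differences were split evenly (10 below 0 and 10 above), and their median was 0.02, beside -0.005 over all tested genes. This median lay between -0.61 (without uvr8-6 UV-B replicate 2) and 0.37 (without uvr8-6 dark replicate 2) over the 22 alternatives. None rose or fell in uvr8-6, beside 2.63% and 2.88% of all tested genes. In WT 2 of the 20 rose, HYH and BBX22, beside 12.9% of all tested genes, so this count is not above the background. HYH, the relative of HY5, had 5.3, 14 and 3.17 CPM after UV-B and 1.6, 7.69 and 1.03 CPM in the dark in uvr8-6, against 26.1, 17 and 31.5 CPM after UV-B and 6.77, 1.39 and 2.39 CPM in the dark in WT. Its WT UV-B libraries were above all its WT dark libraries, whereas the uvr8-6 groups overlapped through dark replicate 2. By replicate number, each uvr8-6 UV-B library was above its dark library. The difference of its log2 responses was -1.605 ± 0.93 (adjusted p = 0.738). With the replicate number as a block within each genotype it was -1.55 (adjusted p = 0.155). BBX22, a B-box partner of HY5, had a difference of -0.73 ± 0.39 (adjusted p = 0.693).

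HY5, the bZIP factor at the end of the chain, had 19, 108 and 21.1 CPM after UV-B and 23.4, 95.5 and 21.2 CPM in the dark in uvr8-6, against 80.1, 31.1 and 51.8 CPM after UV-B and 113, 55.1 and 71.9 CPM in the dark in WT. Replicate 2 of uvr8-6 was the highest library of each of its groups, and the spread between replicates exceeded the change with UV-B. The difference of log2 responses was 0.66 ± 0.91, and -0.65 without uvr8-6 UV-B replicate 2. The values of RUP1 (-0.34 ± 0.84), RUP2 (-0.53 ± 0.99) and ELIP1 (-0.08 ± 1.66) had standard errors larger than themselves and also took either sign when single libraries were left out. For these genes a missed threshold does not show that the genotypes respond alike. COP1, the ligase bound by the receptor, and its partner SPA2 had differences of 0.14 ± 0.18 and 0.11 ± 0.15.

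Chalcone synthase and flavonol synthase, the entry and the last step of flavonol synthesis, were the members of the receptor's target list that passed, 2 of 15, and both were lower in uvr8-6, beside 0.53% of all tested genes. CHS had 2.35, 4.69 and 1.71 CPM after UV-B and 0.617, 1.15 and 0.322 CPM in the dark in uvr8-6, against 20.15, 23.4 and 28 CPM after UV-B and 0.585, 0.126 and 0.0884 CPM in the dark in WT. CHS rose in both genotypes, by 2.07 ± 0.48 on the log2 scale in uvr8-6 (adjusted p = 0.0125) and by 6.32 ± 0.51 in WT (adjusted p = 2.3e-08). All uvr8-6 UV-B libraries were below all WT UV-B libraries, while the dark libraries of the 2 genotypes overlapped. The difference was -4.25 ± 0.84 (adjusted p = 0.0183), based on 9 counts in the WT dark libraries. It did not pass without both libraries of uvr8-6 replicate 2, without uvr8-6 dark replicate 2, without WT dark replicate 2 or 3, or in a fit on the 12 libraries alone (adjusted p up to 0.155).

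FLS1, flavonol synthase, had 1.07, 0.99 and 0.792 CPM after UV-B and 0.617, 1.08 and 0.579 CPM in the dark in uvr8-6, against 2.9, 2.73 and 2.96 CPM after UV-B and 0.502, 0.126 and 0 CPM in the dark in WT. It rose in WT by 3.62 ± 0.52, and its uvr8-6 libraries after UV-B overlapped those in the dark. The difference was -3.28 ± 0.70 (adjusted p = 0.0234), and it was lost in 8 of 22 alternatives (adjusted p up to 0.176). FLS1 was a low-expressed gene, with 7 counts in all WT dark libraries together.

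Of the 18 flavonoid synthesis genes tested, CHS and FLS1 were also the 2 that passed, beside 0.53% of all tested genes that were lower. In WT 4 of the 18 rose and 3 fell, beside 12.9% and 12.7% of all tested genes, so these WT counts are near the background. The enzymes next to CHS, chalcone isomerase CHI and its helper CHIL, rose in WT. CHI had 7.05, 5.94 and 5.06 CPM after UV-B and 4.44, 3.74 and 4.44 CPM in the dark in uvr8-6, against 8.82, 7.76 and 10.6 CPM after UV-B and 4.6, 2.27 and 2.21 CPM in the dark in WT. The difference was -1.04 ± 0.32 for CHI (adjusted p = 0.174) and -0.97 ± 0.43 for CHIL (adjusted p = 0.542). Both passed without WT dark replicate 1 (adjusted p = 0.0092 for CHI and 0.0282 for CHIL), the WT dark library in which each was highest. Of the 18 differences 10 lay above 0, and none of these passed. PAL2, a phenylalanine ammonia-lyase gene, had a difference of 0.83 ± 0.26 (adjusted p = 0.194) and OMT1, a flavonol O-methyltransferase gene, one of 0.63 ± 0.21 (adjusted p = 0.251), and both fell in WT. F3H, DFR and LDOX were too low to be tested, and 18 of the 25 list members were. UGT84A1, a sinapate glucosyltransferase gene of the target list, rose in WT and had a difference of -1.02 ± 0.99 (adjusted p = 0.956).

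HY5 and HYH bind G-boxes. The window of 250 bases before and 50 bases after the RefSeq gene start (TAIR10.1; the build behind the deposited counts is not given in the sources used here) was searched for CACGTG, which reads the same on both strands. It occurred in 11 of the 105 lower genes (10.5%), in 2 of the 51 higher genes (3.92%) and in 8.90% of the 19718 tested genes with a window. The CHS match, shown because CHS is the best known HY5 target, lies at chr5:4488228-4488263 on the plus strand, with the G-box in capitals.
CHS: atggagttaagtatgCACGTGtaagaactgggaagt

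The list of oxidative and mitochondrial stress had more lower genes than any of the other 22 lists. Of 25 listed members 23 were tested, 11 passed with a lower difference and 0 with a higher one, and all 23 differences were below 0, with a median of -1.53. This compares with 0.53% of all tested genes that were lower and a median of -0.005. All the gene lists were drawn up with earlier results of these data known, and the WT response is a term of the difference. Counts over a list are therefore a description. In uvr8-6 17 of the 23 rose (median log2 response 1.73), against 19 in WT (median 3.70), so most of the list rose in both genotypes. Over all tested genes 2.63% rose in uvr8-6 and 12.9% in WT. With the members at 0 counts in the dark set to the bound that a floor of 3 counts over the group gives, the medians were 1.73 in uvr8-6, 3.64 in WT and -1.51 for the difference. The list holds families whose copies may share reads, such as DTX1, DTX3 and DTX4, GSTU24 and GSTU25, or UGT74E1 and UGT74E2. These are uncertain where reads were split between copies. The passing count fell to 1 without both libraries of uvr8-6 replicate 2 and was 11 without both of WT replicate 1, while the list median stayed between -1.95 and -1.40 over all 22 alternatives.

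NAC013, a membrane-held transcription factor that signals mitochondrial dysfunction to the nucleus, had 38.2, 38.9 and 30.2 CPM after UV-B and 12.1, 17.3 and 11.2 CPM in the dark in uvr8-6. In WT it had 49.5, 66.6 and 78.8 CPM after UV-B and 6.44, 3.41 and 5.48 CPM in the dark. The uvr8-6 libraries were below those of WT after UV-B and above them in the dark, without overlap. The difference was -2.23 ± 0.29 (adjusted p = 5.1e-04) and passed in all 22 alternatives. NAC053, a related factor of the same stress, had -1.01 ± 0.23 (adjusted p = 0.0402), lost in 11 alternatives.

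OM66 and AOX1A, known targets of NAC013, showed the same order. OM66, an outer mitochondrial membrane AAA-ATPase, had 47.1, 43 and 34.3 CPM after UV-B and 7.22, 18.19 and 5.6 CPM in the dark in uvr8-6, against 52.5, 86.6 and 101.4 CPM after UV-B and 2.59, 4.04 and 4.24 CPM in the dark in WT. Its difference was -2.47 ± 0.49 (adjusted p = 0.0166). AOX1A, the main alternative oxidase, had 145, 145 and 113 CPM after UV-B and 40.0, 53.9 and 37.7 CPM in the dark in uvr8-6, against 178, 213 and 246 CPM after UV-B and 27.9, 27.6 and 34.5 CPM in the dark in WT. Both genes rose in both genotypes, and in both the uvr8-6 UV-B libraries lay below the WT ones and the uvr8-6 dark libraries above them. The AOX1A difference was -1.21 ± 0.27 (adjusted p = 0.0297). OM66 lost its call in 5 alternatives and AOX1A in 8 (adjusted p up to 0.131 and 0.148), among them leaving out uvr8-6 dark replicate 2. AT2G21640, annotated as an oxidative stress marker, had -2.84 ± 0.64 (adjusted p = 0.0402), but one of 0.0793 with the replicate number as a block within each genotype. After UV-B its libraries overlapped between the genotypes, and its WT dark replicate 1 had 14.7 CPM beside 1.51 and 1.06 CPM.

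AT2G18193, another AAA-ATPase gene, had the smallest p of all lower genes. It had 276, 249 and 212 CPM after UV-B and 23.63, 40.2 and 20.0 CPM in the dark in uvr8-6, against 329.8, 505 and 612 CPM after UV-B and 4.6, 4.92 and 4.51 CPM in the dark in WT. The difference of -3.55 ± 0.38 (adjusted p = 7.8e-05) was made of a UV-B level that was lower in uvr8-6 and a dark level that was higher, each without overlap. ABCC3, a vacuolar ABC transporter, had 259.9, 207 and 189.7 CPM after UV-B and 36.5, 37.8 and 26.2 CPM in the dark in uvr8-6, against 377, 534 and 650.4 CPM after UV-B and 16.8, 13.9 and 11.9 CPM in the dark in WT (-2.48 ± 0.30, adjusted p = 2.6e-04). Both kept their calls in all 22 alternatives.

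GSTU25, a tau-class glutathione transferase, had -2.22 ± 0.43 (adjusted p = 0.0126). GSTU9, of the same class and outside the list, had 94.3, 68.2 and 51.4 CPM after UV-B and 8.27, 11.9 and 11.3 CPM in the dark in uvr8-6, against 95.1, 140.4 and 151 CPM after UV-B and 2.42, 1.39 and 4.42 CPM in the dark in WT (-2.73 ± 0.37, adjusted p = 5.4e-04). Of 41 genes described as glutathione S-transferases 3 were lower and 0 higher, beside 0.53% lower and 0.258% higher of all tested genes, with a median difference of -0.17. GSTU4, also of the tau class, did not pass (-2.23 ± 0.71, adjusted p = 0.220). DTX3, a transporter of the MATE family, had 81.3, 48.6 and 47.8 CPM after UV-B in uvr8-6 and 143, 229 and 269 CPM after UV-B in WT, and at most 1.22 CPM in every dark library. Its difference was -3.87 ± 0.82 (adjusted p = 0.0253, but 0.0653 with the block within each genotype), resting on 6 counts in the WT dark libraries. DTX1 had -3.41 ± 0.70 (adjusted p = 0.0234, but 0.0778 with the block). DTX4 did not pass (-0.84 ± 3.86), and its dark libraries held 1 count in each genotype. Its ± value is unreliable, since those of its responses were 0.63 in uvr8-6 and 0.62 in WT. Of 41 genes described as transporters of this family 2 were lower and 0 higher, beside 0.53% lower and 0.258% higher of all tested genes. Their median difference was -0.12. Both descriptions were searched after values of such genes were seen, so these counts are a description.

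Other genes at the low end of the ranking had little known function. AT5G54560, of unknown function, had 9.2, 10.6 and 6.21 CPM after UV-B and 1.54, 2.73 and 1.03 CPM in the dark in uvr8-6, against 8.95, 16.2 and 12.9 CPM after UV-B and 0 counts in the dark in WT. Its WT level after UV-B was at least 137-fold higher than in the dark, against a floor of 3 counts over the group, and the fitted difference of -7.82 depends on the prior count. SRO3, an inactive relative of the poly(ADP-ribose) polymerases, had -3.60 ± 0.66 (adjusted p = 0.00809), with uvr8-6 levels above those of WT both after UV-B (9.87 to 16.2 against 4.74 to 7.98 CPM) and in the dark (3.41 to 6.40 against 0 to 0.334 CPM). AT5G44390 (a berberine bridge enzyme-like gene), AT1G06330 (of a heavy metal transport and detoxification family) and the uncharacterized AT4G37030 and AT4G08555 had -3.97 ± 0.65, -3.32 ± 0.44, -2.77 ± 0.38 and -3.22 ± 0.60. AT5G43450, a 2-oxoglutarate-dependent oxygenase gene with a close copy, AT5G43440, had -3.19 ± 0.72 (adjusted p = 0.0371, lost in 13 alternatives).

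**Figure D3:**
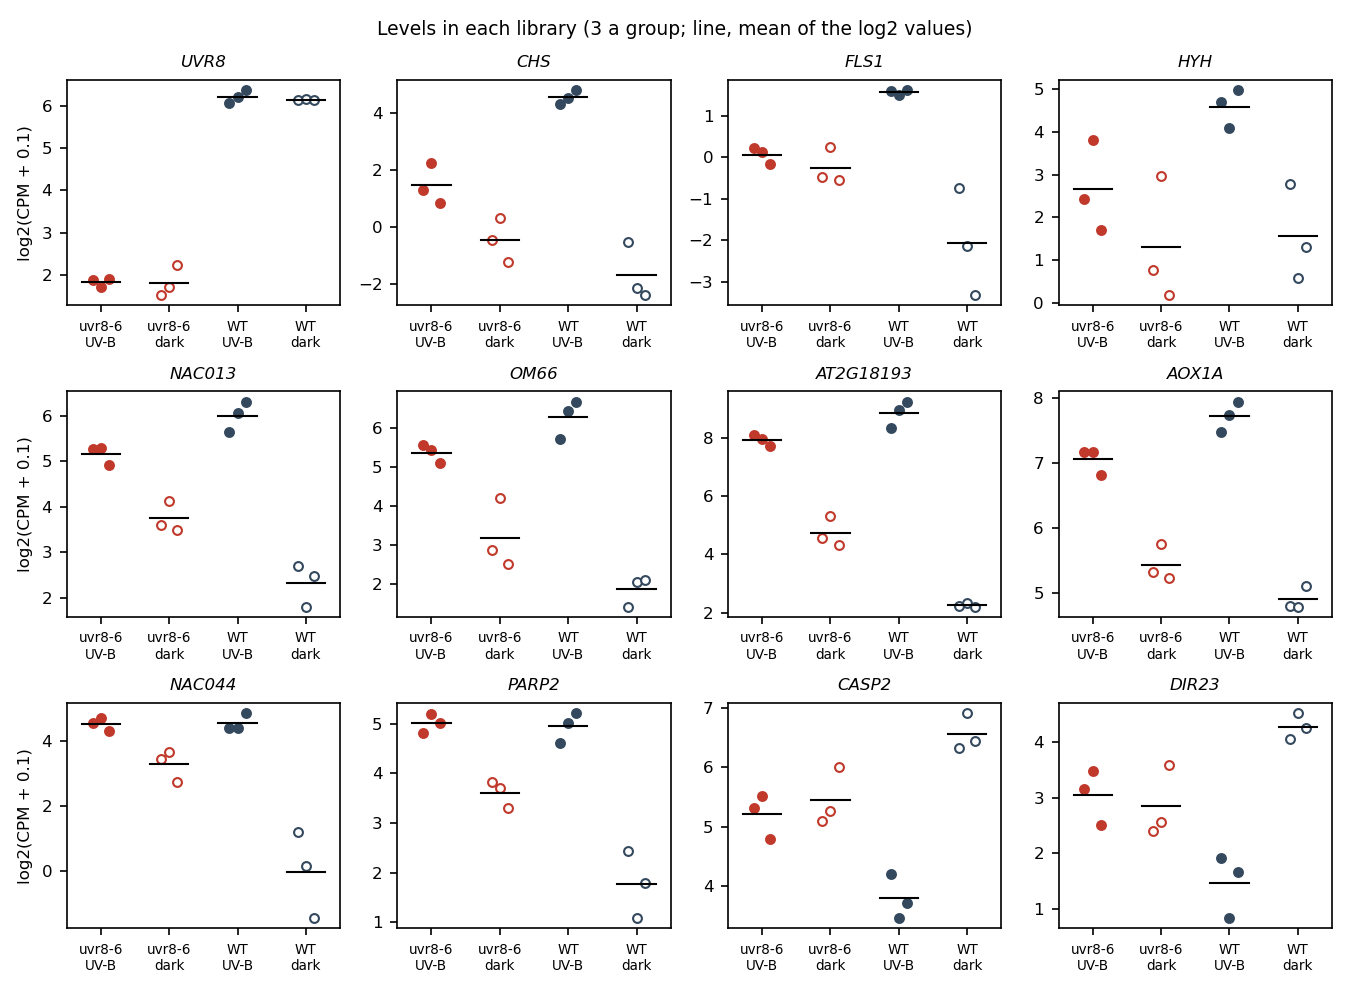
Points are single libraries (3 a group, replicates 1 to 3 from left to right), lines the means of the log2 values, and the y axis log2(CPM + 0.1). In the panels of NAC013, OM66, AT2G18193 and AOX1A the uvr8-6 UV-B points lie below the WT UV-B points and the uvr8-6 dark points above the WT dark points.

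By the descriptions deposited with the data, 554 tested genes mention mitochondria. Of these, 9 (1.62%) passed, each with a lower difference, beside 0.53% of all tested genes that were lower. The median difference of the 554 was -0.11, beside -0.005 over all tested genes. Of the 554, 19 rose in uvr8-6 and 142 in WT, beside 2.63% and 12.9% of all tested genes. The chaperone gene mtHsc70-1 had 148, 155 and 125 CPM after UV-B and 79.2, 91.9 and 59.1 CPM in the dark in uvr8-6, against 258, 324 and 399 CPM after UV-B and 96.2, 62.6 and 57.2 CPM in the dark in WT. Here the uvr8-6 and WT dark libraries overlapped, unlike those of NAC013, and the UV-B libraries did not. Its difference was -1.28 ± 0.26 (adjusted p = 0.0160). MGE1, the exchange factor of that chaperone, had -1.11 ± 0.25 (adjusted p = 0.0308), the outer membrane protein gene TOC64-V -1.43 ± 0.34, the cytochrome oxidase assembly gene COX15 -1.197 ± 0.28, the inner membrane gene LETM1 -1.05 ± 0.25, the mechanosensitive channel gene MSL1 -0.996 ± 0.17 and the phosphate carrier gene PHT3;3 -1.04 ± 0.21. COX15 and LETM1 are not among the 9, and not all of the 9 are given here. The word searched and the genes given with values were chosen after their values were seen. MSL1 lost its call in 1 of 22 alternatives, the fit on the 12 libraries. The other genes given with values lost theirs in 6 to 13 (adjusted p up to 0.677 for PHT3;3). SDH2-3, which is among the 9, lost its call in 17.

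NAC013 is known to bind the mitochondrial dysfunction motif. It was searched on both strands of the same windows as CTTG, 5 bases of any kind and then CAAG or CACG. It shares no letters with the G-box in these stretches. A match occurred in 17 of the 105 lower genes (16.2%), in 0 of the 51 higher genes, and in 1.22% of the 19718 tested genes with a window. Of the 105 lower genes 104 rose in WT, and the share among all 2559 genes that rose in WT was not counted. Whether the 16.2% goes with the difference or with a rise after UV-B was therefore not tested. Of the 17, 5 were in the oxidative and mitochondrial stress list, and 13 had a match wholly before the gene start. OM66 and NAC013 had no match in this window. The stretches below run from 15 bases before the first match to 15 after the last, or to the gene start, for 8 lower genes with a match upstream of it. They are given 5′ to 3′ in the gene's direction, with capitals for the mitochondrial dysfunction motif and for the G-boxes of AT2G18193, AT2G21640 and LETM1. Their TAIR10.1 positions are AT1G06330 at chr1:1932460-1932502 on the minus strand, SRO3 at chr1:26550656-26550698 on the minus strand, DTX3 at chr2:1339597-1339698 on the minus strand, AT2G18193 at chr2:7919408-7919504 on the minus strand, AT2G21640 at chr2:9254312-9254377 on the plus strand, NAC044 at chr3:228995-229037 on the plus strand, LETM1 at chr3:22102312-22102385 on the minus strand and AT4G08555 at chr4:5447915-5447957 on the plus strand.
AT1G06330: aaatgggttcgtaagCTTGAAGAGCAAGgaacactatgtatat 
SRO3: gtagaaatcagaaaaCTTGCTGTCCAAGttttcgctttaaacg 
DTX3: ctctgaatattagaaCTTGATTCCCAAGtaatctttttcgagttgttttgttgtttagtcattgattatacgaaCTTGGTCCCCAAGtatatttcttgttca 
AT2G18193: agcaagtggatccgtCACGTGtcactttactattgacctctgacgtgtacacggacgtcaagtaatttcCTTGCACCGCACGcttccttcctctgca 
AT2G21640: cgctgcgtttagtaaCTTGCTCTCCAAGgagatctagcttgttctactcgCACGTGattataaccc 
NAC044: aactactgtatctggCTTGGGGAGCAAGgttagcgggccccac 
LETM1: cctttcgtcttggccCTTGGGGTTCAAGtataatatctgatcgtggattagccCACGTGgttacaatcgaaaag 
AT4G08555: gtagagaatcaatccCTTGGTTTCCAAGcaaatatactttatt
A match describes the sequence and does not show binding. DTX3 held 2 copies of the motif, and AT2G18193, AT2G21640 and LETM1 a G-box beside it.

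DNA damage response genes were lower in part. Of 27 tested members of that list 4 passed, all lower, and 21 of the 27 differences were below 0, with a median of -0.39. Over all tested genes 0.53% were lower and the median was -0.005. In uvr8-6 13 rose (median log2 response 0.64), and in WT 19 rose and 1 fell (median 1.37). Of all tested genes 2.63% rose in uvr8-6, and in WT 12.9% rose and 12.7% fell. NAC044, a NAC factor that arrests the cell cycle after DNA damage downstream of SOG1, had 23, 26 and 19.6 CPM after UV-B and 10.7, 12.5 and 6.57 CPM in the dark in uvr8-6. In WT it had 20.7, 21 and 28.6 CPM after UV-B and 2.17, 1.01 and 0.265 CPM in the dark. After UV-B the genotypes overlapped, and in the dark every uvr8-6 library was above every WT library. The difference was -3.10 ± 0.44 (adjusted p = 9.4e-04) and passed in all 22 alternatives.

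PARP2, a poly(ADP-ribose) polymerase of DNA repair, had the same order, with 27.9, 36.4 and 32 CPM after UV-B and 14.1, 12.9 and 9.72 CPM in the dark in uvr8-6, against 24.4, 32 and 36.9 CPM after UV-B and 5.27, 2.02 and 3.36 CPM in the dark in WT. Its difference was -1.69 ± 0.32 (adjusted p = 0.0103). It did not pass in the fit on 12 libraries or without both libraries of uvr8-6 replicate 2 (adjusted p up to 0.104). NAC085, the close relative of NAC044, had -4.17 ± 0.82 (adjusted p = 0.0156), with 1 count in the WT dark libraries together. TRFL10, a telomere repeat-binding factor-like gene, had -1.04 ± 0.24 (adjusted p = 0.0422, lost in 13 alternatives). BRCA1, of break repair, had 33.1, 33.9 and 36 CPM after UV-B in uvr8-6 and 45.6, 54.3 and 62.2 CPM in WT, and did not pass (-0.97 ± 0.24, adjusted p = 0.0530, and 0.0107 with DESeq2's Wald test). All 5 of these genes rose in both genotypes. None of the 18 tested genes of UV lesion repair passed, and their median difference was -0.02.

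DNA damage genes with a passing difference numbered 1 without both libraries of uvr8-6 replicate 2, 9 without both of WT replicate 1 and 8 without both pairs. The median of that list lay between -0.66 and -0.32 over the alternatives.

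**Figure D4:**
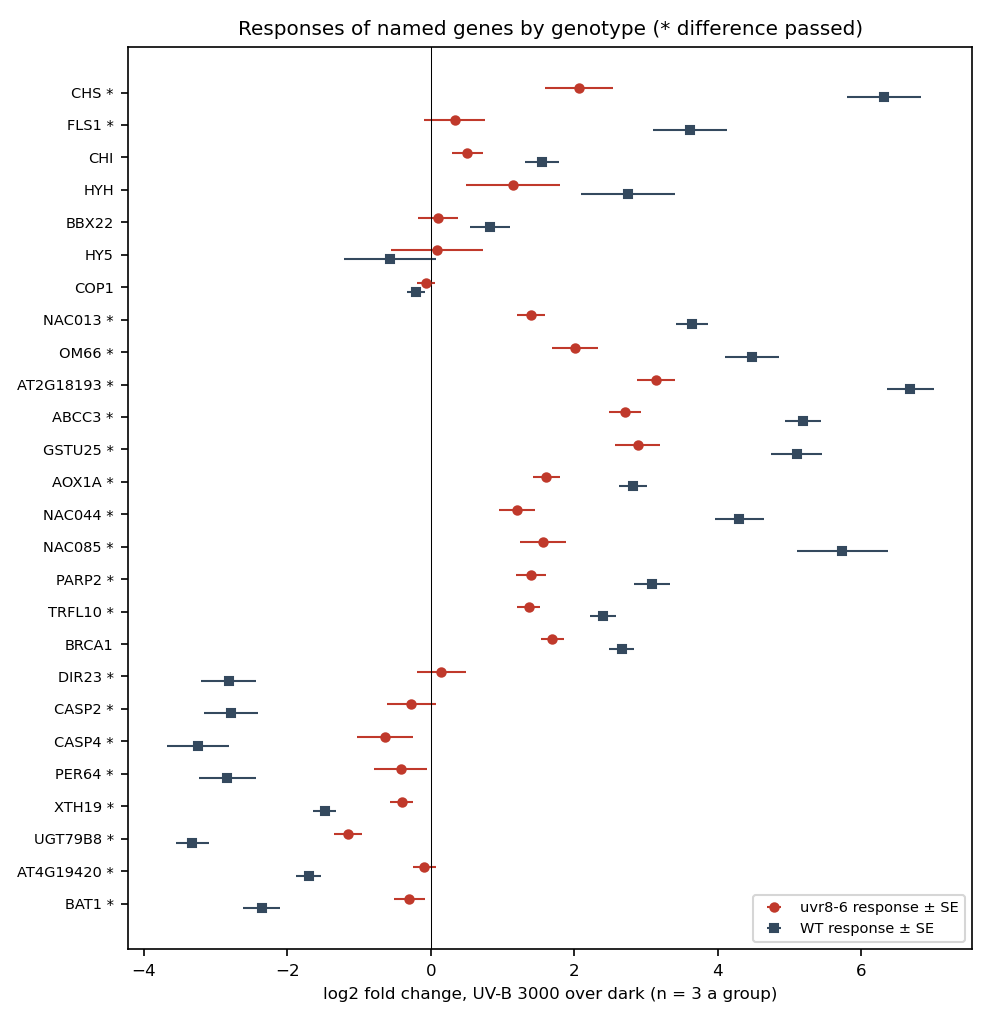
Points are the log2 fold changes of UV-B over dark in uvr8-6 (circles) and WT (squares) with their standard errors, from 3 libraries a group. The genes with an asterisk passed for the difference, and in each of these the uvr8-6 value lies nearer to 0 than the WT value.

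The genes with a higher difference fell in WT and changed less in uvr8-6. Those with the highest values include parts of the Casparian strip machinery, which lays a lignin barrier in the endodermis. CASP2, a scaffold protein of the strip, had 39.8, 45.7 and 27.7 CPM after UV-B and 33.9, 38.5 and 64.4 CPM in the dark in uvr8-6, against 18.3, 10.8 and 13 CPM after UV-B and 80.0, 121 and 87 CPM in the dark in WT. The uvr8-6 libraries overlapped between UV-B and dark, whereas every WT UV-B library was below every WT dark library. The difference was 2.51 ± 0.51 for CASP2 (adjusted p = 0.0199) and 2.601 ± 0.58 for CASP4 (adjusted p = 0.0357), and CASP1 did not pass (2.39 ± 0.58, adjusted p = 0.0568). With the block within each genotype CASP4 did not pass (adjusted p = 0.0594). The call of CASP2 was lost in 7 alternatives and that of CASP4 in 13, among them leaving out either WT library UV-B replicate 2 or dark replicate 2, or both libraries of uvr8-6 replicate 2.

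Peroxidases, laccases and dirigent proteins, which take part in lignin polymerisation, were near them in the ranking. DIR23, a dirigent protein gene, had the highest difference, 2.97 ± 0.51 (adjusted p = 0.00538). It had 8.79, 11.1 and 5.61 CPM after UV-B and 5.18, 5.82 and 12 CPM in the dark in uvr8-6, against 3.69, 1.68 and 3.05 CPM after UV-B and 16.6, 23 and 19 CPM in the dark in WT. It lost its call only without both libraries of uvr8-6 replicate 2 (adjusted p = 0.0633). Of 16 tested dirigent protein genes 4 passed, DIR13, DIR16, DIR18 and DIR23, all higher, beside 0.258% of all tested genes. Of the 16, 3 fell in uvr8-6 and 9 in WT, beside 2.88% and 12.7% of all tested genes. PER9, a class III peroxidase, had 2.87 ± 0.65 (adjusted p = 0.0408, but 0.0722 with the block), and PER64, a peroxidase of the Casparian strip, 2.42 ± 0.53 (adjusted p = 0.0342, but 0.0513 with the block). LAC3, a laccase, had 2.49 ± 0.55 (adjusted p = 0.0327, but 0.0594 with the block). Of 52 tested class III peroxidase genes PER9 and PER64 passed, both higher, beside 0.258% of all tested genes, and neither passed with the block. The median difference of the 52 was 0.21. The words dirigent and peroxidase were searched after values of such genes were seen. Their counts are therefore a description and not a separate result. AT1G30750 and AT2G40113, an extensin-family gene, had 2.77 ± 0.50 and 2.75 ± 0.48, and the kinase gene AT1G03920 2.52 ± 0.47.

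Markers of the root were measured beside these genes. The 12 genes of the root list, CASP2 and CASP4 among them, summed to 228 to 344 CPM after UV-B and 374 to 701 CPM in the dark in uvr8-6, against 118 to 196 CPM after UV-B and 837 to 1154 CPM in the dark in WT. EXPA7, of root hairs, had 27.8 to 48.1 CPM after UV-B and 30.1 to 53.8 CPM in the dark in uvr8-6, against 4.13 to 27.7 CPM after UV-B and 12.6 to 17.56 CPM in the dark in WT. The iron transporter gene IRT1 was too low to be tested, and 3 of the other 11 genes passed, each with a higher difference, beside 0.258% of all tested genes. The median difference of the list was 0.20. The passing count was 0 without both libraries of uvr8-6 replicate 2, without both pairs, or without any 1 of uvr8-6 dark replicate 1 or 2, WT UV-B replicate 2 or 3, or WT dark replicate 2, and it was 4 without both libraries of WT replicate 1. The median was 1.19 without both libraries of WT replicate 1 and lay between -0.19 and 1.40 over the 22 alternatives. Of 34 tested genes described as Casparian strip or similar membrane proteins 3 passed, all higher, beside 0.258% of all tested genes. Their median difference was 0.16. This description too was searched after values of such genes were seen. The share of endodermal or root cells in the cut hypocotyls, and its part in these differences, was not tested, and fewer cells of a type and less RNA per cell cannot be told apart in such samples. The 11 genes of the seed list summed to 6.67 to 34.1 CPM after UV-B and 11.5 to 73.8 CPM in the dark in uvr8-6, against 3.05 to 11.5 CPM after UV-B and 2.40 to 12.1 CPM in the dark in WT, and none passed.

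The higher genes with the smallest p were spread over other functions. UGT79B8, a UDP-glycosyltransferase gene, fell in both genotypes. It had 19.8, 13.3 and 12.6 CPM after UV-B and 32, 29.5 and 40.4 CPM in the dark in uvr8-6, against 5.93, 3.35 and 3.05 CPM after UV-B and 37.6, 35.8 and 46.6 CPM in the dark in WT, with a difference of 2.17 ± 0.30 (adjusted p = 5.4e-04). FUT5, a fucosyltransferase gene, fell in both too (2.47 ± 0.38, adjusted p = 0.00184). AT4G19420, a pectin acetylesterase gene of the cell wall, had 25.2, 27.9 and 26.1 CPM after UV-B and 27.4, 28.1 and 29 CPM in the dark in uvr8-6, against 12, 6.79 and 7.27 CPM after UV-B and 25.8, 30.8 and 27.1 CPM in the dark in WT (1.61 ± 0.24, adjusted p = 0.00149). BAT1, an acyltransferase that inactivates brassinosteroids, had a difference of 2.06 ± 0.34 (adjusted p = 0.00301). For these 4 genes the dark libraries of the genotypes overlapped and the uvr8-6 UV-B libraries were all above those of WT. All 4 kept their calls in the 22 alternatives. AT2G15300, a receptor kinase gene, had 1.77 ± 0.28 (adjusted p = 0.00184).

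Few genes of elongation and of other lists passed for the difference of responses. Of 23 tested genes of cell wall expansion 13 fell in WT and 4 in uvr8-6, beside 12.7% and 2.88% of all tested genes. For the difference 1 passed, with a higher value, beside 0.258% of all tested genes. That gene was XTH19, a xyloglucan endotransglucosylase/hydrolase of growing walls. It had 1039.5, 874 and 832 CPM after UV-B and 1249, 1069 and 1318 CPM in the dark in uvr8-6, against 459, 464 and 428 CPM after UV-B and 1023, 1507 and 1247 CPM in the dark in WT. The difference was 1.08 ± 0.23 (adjusted p = 0.0234), lost in 8 alternatives, and the list median was 0.09. None of the 15 genes of dark growth and shade, 24 of auxin, 16 of brassinosteroid, 19 of gibberellin, 15 of ethylene, 9 of jasmonate or 10 of abscisic acid passed. Nor did any of 25 genes of light harvesting and photosystems, where the median difference was -0.23. In that list 1 rose in uvr8-6 and 16 in WT, beside 2.63% and 12.9% of all tested genes. None passed among 11 genes of tetrapyrrole synthesis, 16 of DNA replication and 17 of mitosis. The same held for 16 of defence, 15 of heat shock and 12 of the shoot apex and stomata. In the heat shock list the median was -0.38, and 0.62 without both libraries of WT replicate 1. A list with no passing gene is not shown to respond alike, since the median standard error of a difference was 0.25.

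**Figure D5:**
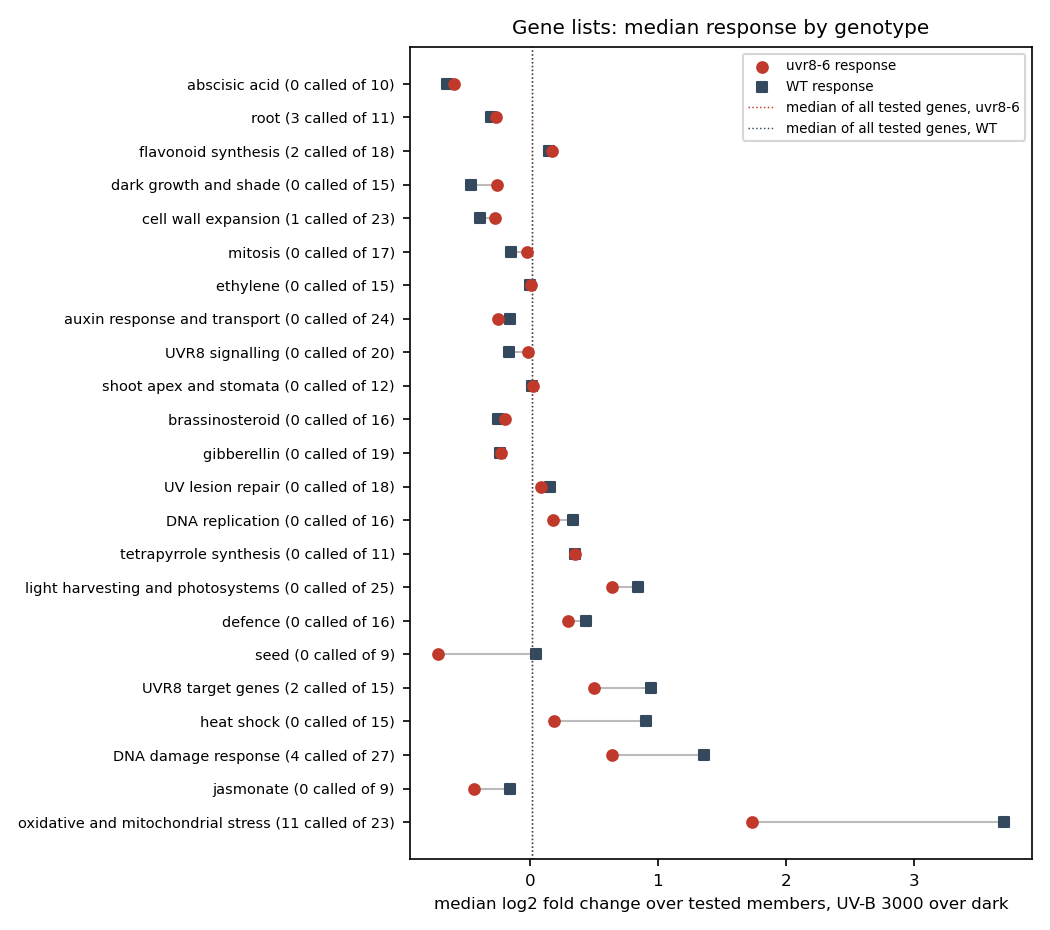
For each gene list the median log2 fold change of UV-B over dark is shown for uvr8-6 (circles) and WT (squares), with the number of members that passed for the difference. The oxidative and mitochondrial stress list has the widest gap, 1.73 in uvr8-6 against 3.70 in WT, and 11 called of 23.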

How the data were processed

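The authors deposited raw read counts per gene locus for 27 libraries in 9 groups, 32832 loci in all. Per the labels, libraries were made with a stranded Illumina TruSeq kit, and the submitters' processing notes name FastQC, Trimmomatic, HISAT2 and DESeq2. For the counting program, annotation and genome build, the name was not given in the sources used here. Gene names and descriptions came from the deposited normalised table, whose values were not used.

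The counts of 12 libraries were compared in 4 groups of 3, with all 27 libraries in one fit of 9 group means (18 residual degrees of freedom). Loci passing edgeR's filterByExpr were tested (19794) with TMM factors, edgeR 4.0.16 (limma 3.58.1, R 4.3.3) and its quasi-likelihood test, two-sided, with Benjamini-Hochberg adjustment over all tested genes at 0.05. CPM values use TMM-scaled library totals. Tested on simulated counts with 200 changed genes among 19198 tested, the test of the difference found 62% of those set to 2-fold and 91% of those set to 4-fold, and made 7 false calls. The simulated libraries were independent, unchanged genes had equal group means, and low-expressed genes were not among those changed. These values do not cover shifts shared by same-numbered libraries or genes with few counts.

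Replicate numbers are not labelled as shared batches. Deviations from group means of same-numbered UV-B and dark libraries correlated by 0.177, 0.541 and 0.277 in uvr8-6 for numbers 1 to 3. In WT they correlated by 0.384, 0.133 and 0.227. Differently numbered pairs lay between -0.380 and 0.196 in uvr8-6 and between -0.382 and 0.285 in WT. Number 1 of uvr8-6 and numbers 2 and 3 of WT lay within these ranges. The numbers were taken as pairs within a genotype from these values, which do not settle the pairing for each number. Across genotypes the correlations included values below 0.

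The named genes are UVR8, members of the signalling, target and flavonoid lists, the 10 highest and 10 lowest differences among passing genes with a mean log2 CPM of at least 1, the 5 passing genes with the smallest p in each direction, and up to 3 passing members of each other list. Further genes, and the words searched in descriptions (mitochondria, DETOXIFICATION transporters, glutathione S-transferase, dirigent, peroxidase, and Casparian strip or similar membrane proteins), were chosen after their values were seen. These are AT2G21640, GSTU4, DTX4, NAC053, AOX1A, GSTU9, mtHsc70-1, MGE1, LETM1, TOC64-V, COX15, MSL1, PHT3;3, TRFL10, BRCA1, CASP1, PER64, DIR13 and DIR18, except where the rule also names them. The members, lists, tests and alternatives were chosen with earlier results of these data known. Alternatives were DESeq2 1.42.0 (its test, and its size factors), no low-count filter, the 12 libraries alone, counts thinned to the lowest total, replicate blocks and each library left out. The runs without pairs of libraries were added after seeing the data. Promoter windows came from the RefSeq TAIR10.1 genome, and 76 tested genes had none. Intervals and floors cover counting error only.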

Additional observations from a re-analysis of the deposited data

Results flagged for a closer look

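The responses to UV-B differed between the genotypes, by the test of the difference itself, in 51 genes with a higher and 105 genes with a lower response in uvr8-6 than in WT. Genotype and sequencing run cannot be told apart in these libraries, although an offset shared by the uvr8-6 UV-B and dark libraries subtracts out of the uvr8-6 response. A run effect that differs between UV-B and dark libraries was not tested.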

How the results depend on the processing

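The 156 differences became 266 with DESeq2's Wald test, 53 in a fit on the 12 libraries alone, 78 with counts thinned to the lowest total, 57 to 318 with single libraries left out, 33 without both libraries of uvr8-6 replicate 2 and 406 without both of WT replicate 1. The 1090 genes of the uvr8-6 response became 624 on the 12 libraries alone, 1742 with the replicate block within each genotype, 596 without both libraries of uvr8-6 replicate 2, and 410 to 1347 with single libraries left out. The counts of the WT response stayed within 1.5 times 5064. The cause was not tested, but the smaller fits and thinned counts hold fewer libraries or reads. With the replicate block within each genotype 224 differences passed, 141 of them among the 156. It ended the calls of 9 of the 55 named passing genes, PER9, CASP4, LAC3, DTX3, DTX1, UGT74E2, AT2G21640, PER64 and SDH2-3, and of no other. Of the 55, 13 passed in all 22 alternatives, 42 missed the threshold in at least 1, and 0 changed direction. Of 16 named genes that did not pass, 4 passed in at least 1 alternative and 5 changed direction. These were UVR8 (0.029 thinned, -0.24 to 0.15 with single libraries left out), ELIP1 (0.13 thinned, -3.19 to 2.70), HY5 (-0.65 to 1.72), RUP1 (-1.53 to 0.39) and RUP2 (-1.80 to 0.40).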
